A study of Mus musculus with 15 samples.

Results

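Natural killer (NK) cells were 297 of the 128019 aortic cells kept for analysis. A cell counted as an NK cell when it held at least 1 UMI (a unique molecular identifier, which tags 1 captured RNA molecule) of at least 2 of the 4 genes Ncr1, Klrb1c, Klre1 and Eomes, together with at least 1 UMI of Nkg7. It also had no UMI of the T cell genes Cd3d, Cd3e and Cd3g, the B cell gene Ms4a1, the endothelial gene Cdh5 or the macrophage gene Csf1r, and at most 1 UMI of the fibroblast genes Lum and Pdgfra together. The values of these genes chose the cells and are given below as a description, with no test.

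The cells came from 15 single-cell RNA libraries of whole aorta from C57BL/6N mice, each made from aortas of 1 sex that were pooled from 3 mice by the sample labels and from 2 or 3 by the study's methods. Young mice (Y) were 3 months old and old mice (O) 27 months by the series description, and the sources used here differ on the age of the young mice. Mice of both ages received fisetin (FIS), a plant flavonoid studied as a senolytic, at 100 mg/kg/day by oral gavage for 1 week on, 2 weeks off and 1 week on, or the vehicle alone (VEH), a mixture of ethanol, PEG400 and Phosal 50 PG, and were killed 1 to 2 weeks after the last dose. There were 4 libraries in Y VEH, Y FIS and O FIS and 3 in O VEH, and a library is named here by its group, its sex (F or M) and its number.

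NK cells are innate lymphocytes that kill stressed, infected or transformed cells without the antigen receptors of T and B cells. They weigh signals from activating receptors against signals from inhibitory receptors that read class I molecules on a target, and then release perforin and granzymes or secrete interferon gamma and chemokines. In mice they mature from cells with surface CD27 to cells with surface CD11b (encoded by Itgam), and tissues also hold group 1 innate lymphoid cells (ILC1), close relatives that share several NK receptors and usually lack Eomes.

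The gate left 7 to 51 NK cells in 14 libraries and 1 in the remaining library, O FIS F2. The median NK cell held 6222 UMIs and 2502 genes with 2.59% mitochondrial UMIs, against 5031 UMIs, 2163 genes and 3.70% over all kept cells, and the NK cells together held 2024347 UMIs. Across the series 2098 of the 125905 distinct barcodes were kept in more than 1 library, and 10 NK barcodes were also kept in another library. Levels per library are given below for the 12 libraries with at least 10 NK cells.

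Of the 297 cells, 120 held all 4 of Ncr1, Klrb1c, Klre1 and Eomes, 151 held 3 and 26 held 2. Just outside the gate were 16 cells with 1 of the 4 genes and Nkg7, and 15 cells with at least 2 of the 4 but no UMI of Nkg7. Just inside it, 7 members held Nkg7 at a single UMI. A further 458 cells met the positive part of the rule but carried a UMI of a Cd3 gene, and 95 carried no Cd3 UMI but another excluded gene. The gate therefore kept 297 of the 392 cells that met the positive part of the rule without a Cd3 UMI.

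The cells carried the receptors that name the lineage. Ncr1, which encodes the activating receptor NKp46, stood at 817 UMIs per 1000000 NK cell UMIs (CPM) and was seen in 96.3% of cells. Klrb1c, which encodes NK1.1, stood at 933 CPM in 96.0% of cells. Klre1, a lectin-like receptor of the same chromosomal cluster, stood at 883 CPM in 94.6% of cells. The transcription factor Eomes was sparser, at 138 CPM in 44.8% of cells, so most cells entered the gate through the 3 receptors. Nkg7, a granule membrane protein, stood at 3052 CPM.

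The other 7 NK markers, which the rule did not use, were all present. Fibroblasts were gated on Lum and Pdgfra, with no UMI of Ptprc, Cdh5 or Csf1r. Klrd1 (CD94) stood at 1021 CPM, against 185 in the 2260 CD8 T cells and 0.248 in the 18540 fibroblasts. Klrk1 (NKG2D) stood at 909.9 CPM against 95.2 and 0.0744, and Itga2 (CD49b) at 308 against 6.21 and 23. All 3 levels are above those of fibroblasts from the same libraries, of which 15.9% held a UMI of Itga2. Of the 6 T cell markers that the rule did not use, Trac had 13 UMIs in all 297 cells, Cd4 5, Cd5 2, Cd8b1 1 and Cd8a none, where 0 UMIs allows up to 1.48 CPM. The other, the costimulatory receptor gene Cd28, had 187 UMIs in 30.3% of cells and stood at 92.4 CPM, against 279 in CD8 T cells. Csf3r of neutrophils and Mcpt8 of basophils were also at 0 in every group.

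**Figure D1:**
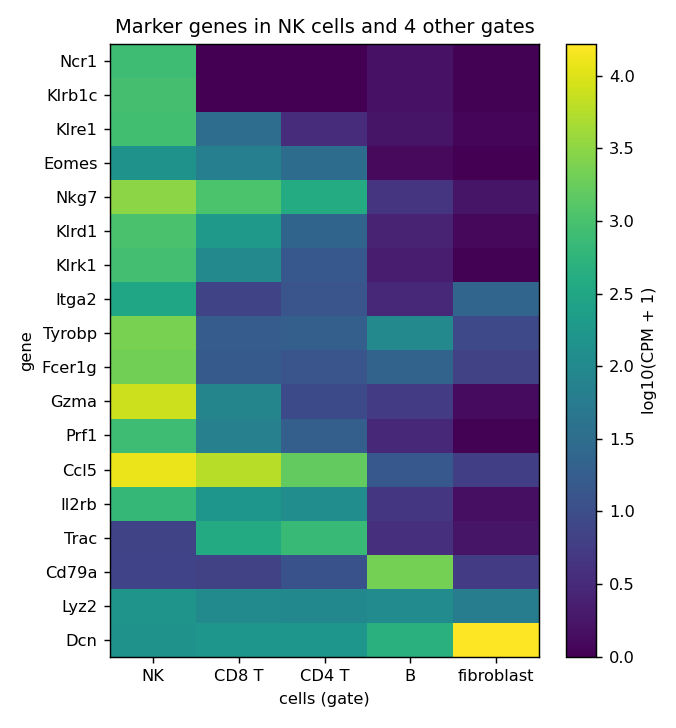
Levels of 18 genes as log10(CPM + 1) in the summed UMIs of NK cells, CD8 T cells, CD4 T cells, B cells and fibroblasts, each chosen by marker genes. The NK column holds the highest level of Tyrobp at 2348 CPM and Gzma at 7979.9 CPM, while Trac is highest in CD4 T cells and Dcn in fibroblasts. Ncr1 (817 CPM in NK cells), Klrb1c, Klre1, Eomes and Nkg7 were used by the NK gate and Cd79a by the B cell gate. Their high levels in those columns were favoured by the choice of cells.

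Many of these receptor genes lie together in the NK gene complex of chromosome 6. On GRCm39, Klrb1c lies at chr6:128755448-128766178, Klre1 at chr6:129554868-129562791, Klrd1 at chr6:129568677-129575738, Klrk1 at chr6:129587286-129600827 and the Ly49 genes from Klra4 (chr6:130020690-130044294) to Klra1 (chr6:130340880-130363837). Ncr1 lies apart from them at chr7:4340710-4348171 and Nkg7 at chr7:43086497-43087678, both on chromosome 7, and Eomes at chr9:118307280-118315200. The Klra genes are close copies of one another, so the split of UMIs among them is uncertain.

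By level, effector molecules led the NK transcriptome after general cell components. Ccl5, a chemokine that draws T cells and monocytes, reached 12626 CPM in 97.6% of cells, against 5845 CPM in CD8 T cells. Gzma, a granule protease that enters target cells, reached 7979.9 CPM in 77.4% of cells, against 83.2 CPM in CD8 T cells. Perforin (Prf1), the pore-forming protein, stood at 809.6 CPM and Gzmb at 808 CPM, against 68.0 and 76.6 in CD8 T cells. Each UMI counts 1 molecule at its 3' end, so these levels are not scaled by transcript length.

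The cytotoxic genes were not all high. Gzmk was at 1.48 CPM, which is 3 UMIs, and Gzmm at 18.8 CPM, whereas CD8 T cells held 79.6 and 90.9 CPM of them. The death ligand Fasl stood at 179.8 CPM and the granule proteoglycan Srgn at 813 CPM. Among the adaptors that carry activating signals, Tyrobp (DAP12) stood at 2348 CPM, Fcer1g at 2077 and Hcst (DAP10) at 573. Of these adaptors, CD8 T cells held Hcst at a similar 496 CPM but Tyrobp at only 15.8 and Fcer1g at 14.4.

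Among secreted molecules, Ccl4 stood at 941 CPM, Xcl1 at 575, Ccl3 at 334 and Ifng at 134. Tnf was lower, at 16.8 CPM, and Csf2 and Il10 had 1 UMI each. The cytokine receptors included Il2rb, the receptor chain shared by interleukins 2 and 15, at 652 CPM in 94.9% of cells. The interleukin 18 receptor chains Il18rap and Il18r1 stood at 398 and 334 CPM and the interleukin 12 receptor chain Il12rb2 at 262 CPM. The transcription factors Id2 (870.4 CPM), Zeb2 (854 CPM) and Tbx21 (309.7 CPM), which encodes T-bet, were all well above Gata3 (68.7 CPM) and Tcf7 (75.1 CPM). The checkpoint receptor Havcr2 had no UMI, and Pdcd1 and Lag3 had 17 and 18.

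Set against CD8 T cells, the largest ratios among RNAs at 50 CPM or more in NK cells were those of Klra4 (Ly49D), at 776 CPM with 1571 UMIs against 7 UMIs in the CD8 T cells, and Klrb1a, at 259 CPM against a single CD8 UMI. The receptors Klrb1b, Klri2 and Klra8 (Ly49H) followed at 317, 306 and 557 CPM, with the signalling adaptor Clnk at 411 CPM and the lipid hydrolase Aoah at 282 CPM. Cma1, which encodes mast cell chymase, stood at 172 CPM in 41.8% of NK cells, while the mast cell gene Cpa3 had 7 UMIs and the basophil gene Mcpt8 none. Ccl1 was also among the 20 largest ratios, but its 380 UMIs came from 1.01% of the cells. The list also held 2 unnamed or poorly described RNAs, the long noncoding RNA ENSMUSG00000121359 within the Ly49 cluster (chr6:130125753-130139664) at 214 CPM and Gm4956 at 320.1 CPM. These ratios describe cells that were gated apart and carry no test.

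The NK cells were not uniform. By the 2 genes that order NK maturation, 68 cells held a UMI of Cd27 without Itgam, 27 held both, 117 held Itgam without Cd27 and 85 held neither. The cells with neither gene were the shallowest, with a median of 5353 UMIs. After each cell was thinned to 3000 UMIs, which left out 19 shallower cells, the counts were 43, 13, 82 and 140 of 278. Itgam had a UMI in 48.5% of NK cells and in 1.24% of fibroblasts (median 6222 and 10624 UMIs per cell). Cd27 had a UMI in 32.0% of NK cells and in 2.14% of fibroblasts. The fibroblast gate left out cells with a Ptprc or Csf1r UMI, so these fibroblast values can understate the background of leukocyte RNA.

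The Itgam-only cells held more of the cytotoxic and mature genes than the Cd27-only cells, whose median depth was higher (7528 against 6222 UMIs). Gzma stood at 14042 against 2130.5 CPM, Prf1 at 1297 against 245 and Gzmb at 1259 against 267 CPM. The mature NK genes Klrg1 (an inhibitory receptor), Cma1, Zeb2 and S1pr5 (a receptor for exit into blood) stood at 209 against 31.8, 322 against 15.0, 1533 against 181 and 151 against 20.6 CPM. All of these pointed the same way, with Gzma the most abundant.

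The Cd27-only cells held more of another set. The chemokine Xcl1 stood at 133 against 1399 CPM in Itgam-only against Cd27-only cells, and Ltb, a membrane cytokine of the tumour necrosis factor family, at 65.4 against 469. Ctla2a, Emb, Cxcr3 and Tcf7 stood at 216 against 932, 102 against 628, 24.9 against 135 and 30.1 against 118 CPM. Ifng was close between them, at 149 against 114 CPM. These states were read from the same cells whose levels are compared, pool all libraries and carry no test.

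Across the 297 cells, which share libraries and differ in depth, the log-normalised levels of Prf1 and Gzma had a Pearson correlation of 0.70, those of Gzma and Gzmb 0.63 and those of Itgam and Gzma 0.51. Xcl1 correlated with Ltb at 0.51 and with Gzma at -0.54. Ccl3 and Ccl4, which are neighbours on chromosome 11, correlated at 0.57. These coefficients describe the cells and carry no p.

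A smaller set of the gated cells carried ILC1 genes. Of the 7 ILC1 markers (Itga1, Cxcr6, Tnfsf10, Il7r, Tmem176a, Tmem176b and Inpp4b), 140 cells had none, 62 had 1, 30 had 2, 14 had 3 and 51 had 4 or more. Eomes was seen in 47.1% of the cells with no ILC1 marker, in 58.1%, 60% and 57.1% of those with 1, 2 and 3, in 20% and 12.5% of those with 4 and 5, and in none of the 20 cells with 6 or 7. Gzma was seen in 97.9% of the cells with none, in none of those with 5 and in 15.4% and 28.6% of those with 6 and 7. T-bet (Tbx21), a factor of both cell types, was seen in 57.1% to 100% of the cells at every step. Eomes helped to choose the cells, so its values here are a description only. The gate holds some cells with many of the genes listed for ILC1 beside cells with none, and the text goes on calling all 297 by the gate's name. The markers are not particular to lymphocytes, since their summed level in the fibroblasts of the same libraries ran from 267 to 1047 CPM.

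**Figure D2:**
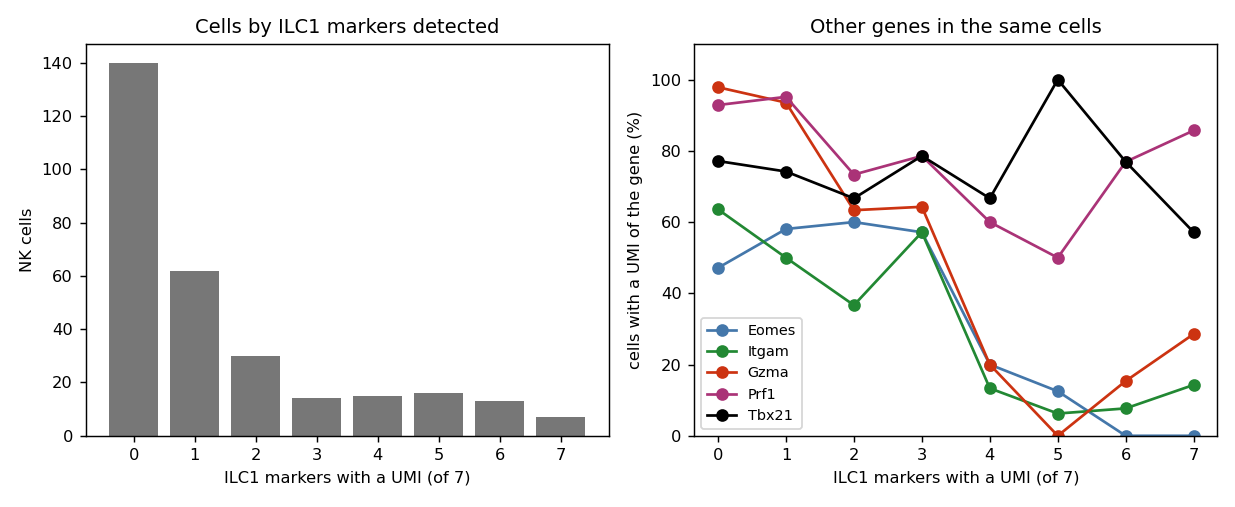
Left, the number of NK cells by how many of 7 ILC1 markers had a UMI. Right, the percentage of the cells at each step that had a UMI of Eomes, Itgam, Gzma, Prf1 or Tbx21. The 140 cells with no ILC1 marker are the largest class, and Eomes lies at 47.1% there, between 57.1% and 60% at 1 to 3 markers and at 0% at 6 and 7, while Tbx21 does not fall below 57.1%.

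The 51 cells with 4 or more ILC1 markers, a line drawn after the values were seen, differed from the 140 cells with none in many other genes. The levels pool all libraries, with 26 of the 51 cells from O VEH F2, and carry no test. The genes named here were among those with the most extreme ratios between these classes. Gzma stood at 644 against 12113 CPM, Zeb2 at 60.8 against 1264 and Klf2 at 147 against 939 CPM. Higher in the 51 cells were Xcl1 at 1889 against 148, Ltb at 606 against 60.3 and Cd7 at 1001 against 161 CPM. The nuclear receptor Rora, the receptor Cd160 and the sialyltransferase St6galnac3 were also higher, at 428, 241 and 1176 against 39.0, 35.5 and 68.6 CPM. Xcl1, Ltb and Cd7 also stood higher in the Cd27-only cells, and since both divisions were drawn through the same cells they are not independent. Cd27 had a UMI in 54.9% of the 51 cells and Itgam in 9.80%, against 21.4% and 63.6% of the 140. Part of the 51 cells were thus among the Cd27-only cells.

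These 51 cells were unevenly spread over libraries. O VEH F2 alone held 26 of them, which is 51.0% of its 51 NK cells (exact 95% binomial interval 36.6% to 65.2%, which covers counting error only). In the other 14 libraries the share ran from 0% to 28.6%, with Y VEH F2 the highest at 4 of 14 cells. By group the counts were 12 of 73 cells in Y VEH, 4 of 90 in Y FIS, 28 of 85 in O VEH and 7 of 49 in O FIS, and O VEH without O VEH F2 had 2 of 34. Median depth was 5806 UMIs in the cells with no ILC1 marker and 5964, 6762.5, 7796 and 8423 in those with 4, 5, 6 and 7. At 3000 UMIs per cell, 31 cells with 4 or more markers were left, of which O VEH F2 held 18. By group the counts were then 8 of 68 cells in Y VEH, 2 of 83 in Y FIS, 20 of 80 in O VEH and 1 of 47 in O FIS. O VEH F2 is therefore named beside the results below that rest on it.

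The question of the first comparison was whether age or fisetin changed the number of NK cells among aortic cells. NK cells were 0.343, 0.160, 0.164 and 0.280% of kept cells in Y VEH F1, F2, M1 and M2 (29, 14, 12 and 18 cells). In Y FIS the shares were 0.479, 0.452, 0.122 and 0.0802% in F1, F2, M1 and M2 (33, 32, 18 and 7 cells), with both female libraries above both male ones. In O VEH they were 0.220, 0.495 and 0.236% in F1, F2 and M1 (14, 51 and 20 cells), and in O FIS 0.267, 0.0142, 0.0700 and 0.208% in F1, F2, M1 and M2 (22, 1, 7 and 19 cells). The groups overlapped in every comparison.

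The mean share was 0.237% ± 0.0902 (SD, n = 4) for Y VEH, 0.317% ± 0.155 (n = 3) for O VEH, 0.283% ± 0.212 (n = 4) for Y FIS and 0.140% ± 0.118 (n = 4) for O FIS. O VEH minus Y VEH was 0.0803 percentage points (exact two-sided permutation test, p = 0.457). Without O VEH F2 the same difference was -0.00882 percentage points (exact permutation p = 1.00), so its sign rests on that library. O FIS minus O VEH was -0.177 percentage points (exact permutation p = 0.229), and without O VEH F2 it was -0.0879 (exact permutation p = 0.533). Without O FIS F1 these groups did not overlap, with O FIS at most 0.208% and O VEH at least 0.220%. The exact permutation p was then 0.1, the smallest that this test can give there. Y FIS minus Y VEH was 0.0466 (exact permutation p = 0.686). Leaving out Y FIS F1 or Y FIS F2 turned this difference to -0.0188 and -0.00955. Old minus young over both treatments was -0.0442 percentage points (exact permutation p = 0.582, n = 7 and 8). It was -0.0908 without O VEH F2 and moved toward 0 without any 1 of Y FIS F1, Y FIS F2, O FIS F2 and O FIS M1 (-0.0106 to -0.0199). The smallest p that these exact permutation tests can give is 0.0571 for both comparisons with O VEH, which could not reach 0.05, 0.0286 for Y FIS against Y VEH and 0.000311 for old against young. No difference in the NK share passed the test, and the Benjamini-Hochberg adjusted p over the 4 comparisons was 0.686 for each.

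Shares of dissociated cells depend on how many of the other cells were recovered. As a share of cells with a Ptprc (CD45) UMI, NK cells were 0.639% ± 0.187 for Y VEH, 1.26% ± 0.817 for Y FIS, 1.11% ± 0.452 for O VEH and 0.489% ± 0.324 for O FIS (SD, n = 4, 4, 3 and 4). Over both ages and treatments the share of kept cells ran from 0.0142% to 0.495% (median 0.305%) in the 8 female libraries and from 0.0700% to 0.280% (median 0.164%) in the 7 male ones, and this difference was not tested.

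**Figure D3:**
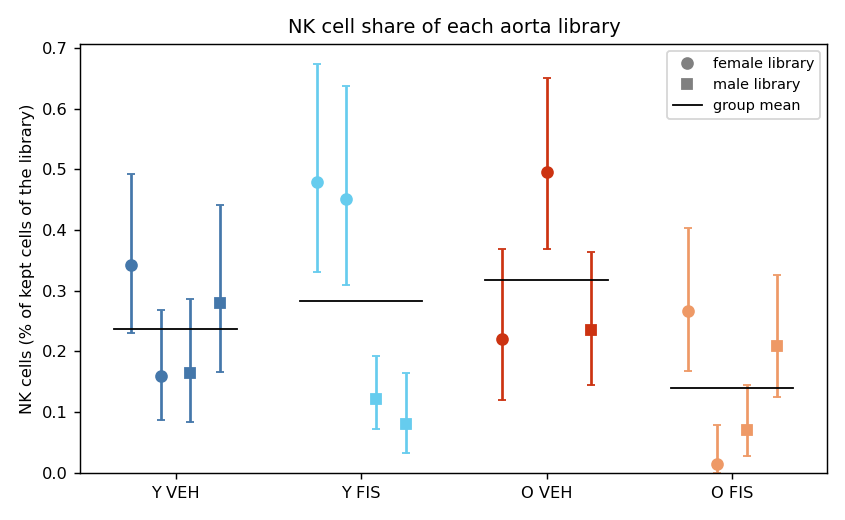
NK cells as a percentage of the kept cells of each of the 15 libraries, by group, with circles for female and squares for male libraries. Bars are exact 95% binomial intervals, which cover counting error only, and lines are group means. The groups overlap, and the highest library is O VEH F2 at 0.495%.

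The landmark genes of NK function were then read in each library. Values follow in the order F1, F2, M1 and M2 for Y VEH, F1, F2 and M1 for Y FIS and for O VEH, and F1 and M2 for O FIS. Gzma stood at 6668, 5399.5, 6845 and 5013 CPM in Y VEH, at 11527, 12050.2 and 2896 in Y FIS, at 12072, 5849 and 9986 in O VEH and at 6445 and 9560.4 in O FIS. Gzmb stood at 484, 384, 703 and 469 CPM in Y VEH, at 981, 1455 and 218 in Y FIS, at 1595, 751 and 1169 in O VEH and at 757 and 453 in O FIS. Prf1 stood at 517, 364, 774 and 596 CPM in Y VEH, at 903, 1569 and 345 in Y FIS, at 1291, 726 and 871 in O VEH and at 710.3 and 675 in O FIS. Y FIS F1, Y FIS F2, O VEH F1 and O VEH M1 were high for all 3 granule genes, and Y FIS M1 was the lowest of the 12. O FIS M2 did not follow this, with Gzma at 9560.4 and Gzmb at 453 CPM. The spread inside Y FIS covered nearly the whole range of the series.

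The maturation genes spread in the same way. Itgam stood at 136, 88.5, 105 and 156 CPM in Y VEH, at 132, 337 and 36.3 in Y FIS, at 197, 113 and 269 in O VEH and at 146 and 212 in O FIS. Klrg1 stood at 84.5, 29.5, 82.0 and 137 CPM in Y VEH, at 152, 251 and 0 in Y FIS, at 206, 102 and 225 in O VEH and at 75.7 and 90.7 in O FIS. Cd27 stood at 108, 68.8, 164 and 166 CPM in Y VEH, at 58.9, 28.4 and 109 in Y FIS, at 156, 82.2 and 102 in O VEH and at 169 and 60.4 in O FIS. Y FIS F2 had the highest Itgam and Klrg1 and the lowest Cd27, and Y FIS M1 had the lowest Itgam and no Klrg1 UMI. Klf2, a factor of resting and recirculating lymphocytes, stood at 512, 482, 621 and 635 CPM in Y VEH, at 760.3, 1189.8 and 263 in Y FIS, at 625, 519 and 646 in O VEH and at 466 and 1048 in O FIS, with Y FIS F2 again the highest and Y FIS M1 the lowest.

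Among secreted molecules, Ccl5 stood at 10017, 11487, 13057 and 9263 CPM in Y VEH, at 14003, 15307 and 5955 in Y FIS, at 17063, 9174 and 14801 in O VEH and at 12087 and 22566 in O FIS. Ifng stood at 131, 187, 82.0 and 117 CPM in Y VEH, at 147, 185 and 36.3 in Y FIS, at 107, 87.9 and 174 in O VEH and at 139.7 and 181 in O FIS. Xcl1 stood at 305, 688, 469 and 801 CPM in Y VEH, at 255, 189.6 and 299.6 in Y FIS, at 288, 1247 and 153 in O VEH and at 1392 and 181 in O FIS. Xcl1 was highest in O FIS F1 and O VEH F2, whereas the remaining O FIS and O VEH libraries lay at 153 to 288 CPM. O VEH F2 is the library with most cells of 4 or more ILC1 markers, and Xcl1 is among the genes that were higher in those cells. O FIS F1 held 4 such cells among its 22 NK cells, and the part of these cells in the Xcl1 levels was not tested.

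Some landmark genes varied less than the granule genes. Tbx21 stood at 193, 226, 352 and 401 CPM in Y VEH, at 226, 465 and 182 in Y FIS, at 329, 303 and 421 in O VEH and at 373 and 262 in O FIS. Il2rb stood at 554, 659, 668 and 762 CPM in Y VEH, at 652, 692 and 517 in Y FIS, at 674, 737 and 610.0 in O VEH and at 529.8 and 574 in O FIS. Il2rb thus stayed within 517 to 762 CPM in all 12 libraries. Cxcr4, the receptor of CXCL12, was sparse, at 28.2, 19.7, 35.2 and 19.5 CPM in Y VEH, at 24.5, 14.2 and 45.4 in Y FIS, at 0, 22.7 and 0 in O VEH and at 11.6 and 10.1 in O FIS, which is 41 UMIs in the 297 cells. The cell cycle inhibitor Cdkn1a (p21) had 6 UMIs in the Y VEH cells, 3 in those of Y FIS, 12 in those of O VEH and 1 in those of O FIS, and Cdkn2a (p16) had 1 UMI in all NK cells, in O VEH. Of the 12 Cdkn1a UMIs of O VEH, 0 came from F1, 5 from F2 and 7 from M1, and neither gene passed the filter on low counts, so neither was tested. A UMI of Mki67 or Top2a, genes of dividing cells, was seen in 7 of 73, 7 of 90, 7 of 85 and 6 of 49 NK cells in the same order of groups.

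**Figure D4:**
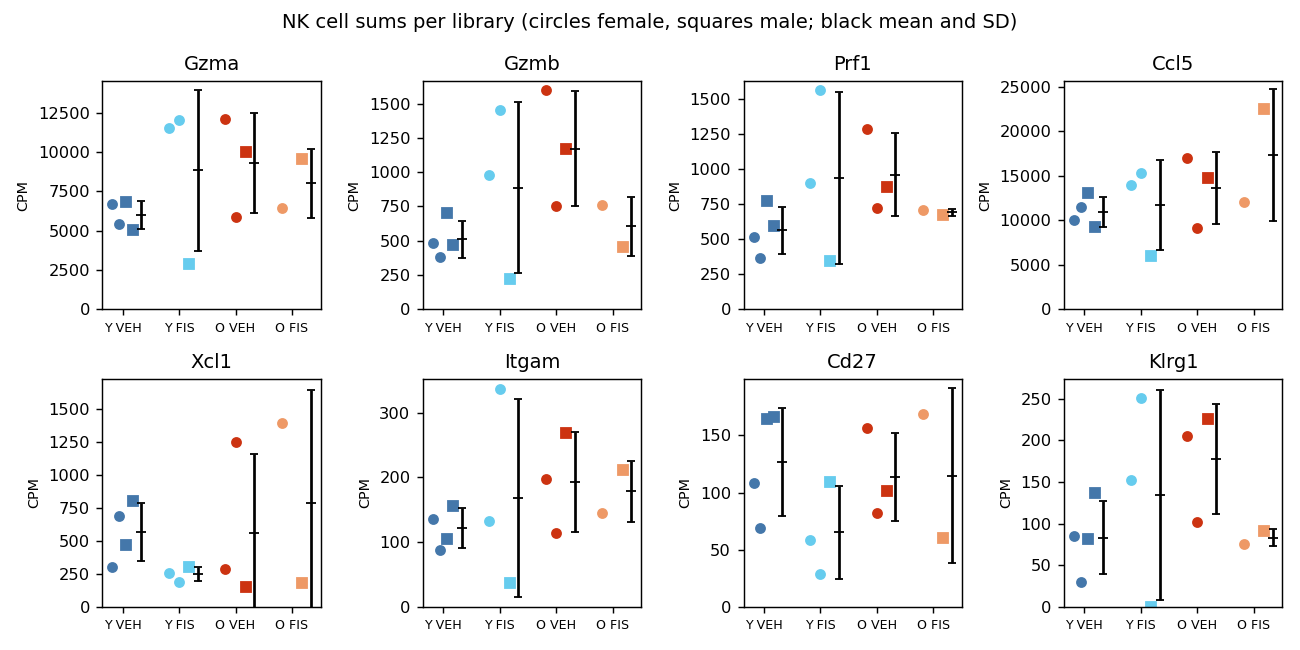
CPM of 8 landmark genes in the summed NK cells of each of the 12 libraries with at least 10 NK cells, by group (circles female, squares male; the black marks give the mean and SD of n = 4, 3, 3 and 2 libraries, and SD bars that would pass below 0 end at the axis). The 3 O VEH libraries lie above the 4 Y VEH libraries for Gzmb, and the male Y FIS library is the lowest of the 12 for Gzma, Gzmb, Prf1, Ccl5, Itgam and Klrg1.

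The second question was which RNAs differed with age in NK cells. Counts were summed over the NK cells of each library and compared by quasi-likelihood in edgeR, in a model of group and sex, and an RNA was called differentially abundant where its log2 fold change passed 0.25 in size and its Benjamini-Hochberg adjusted p was below 0.05. In O VEH against Y VEH, 2 of 3337 RNAs were called (0.0599%), both lower in old NK cells, and 140 had an unadjusted p under 0.05. Over both treatments, 3 of 3339 were called in old against young (0.0898%), 2 lower and 1 higher, and 119 had an unadjusted p under 0.05.

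The 2 RNAs called in both comparisons were Cmss1 and Cdk8. Cmss1 stood at 3461, 3314, 3294 and 3254 CPM in Y VEH, at 2654, 3498 and 3041 in Y FIS, at 1349, 765 and 1373 in O VEH and at 2160.1 and 2236 in O FIS, and the 5 old libraries all lay below the 7 young ones. It fell by 1.51 ± 0.25 (log2, SE) in O VEH against Y VEH (adjusted p = 0.0218) and by 0.99 ± 0.19 in old against young (adjusted p = 0.0463). Cdk8, a kinase of the Mediator complex, stood at 568, 511, 598 and 586 CPM in Y VEH, at 549, 716 and 572 in Y FIS, at 247, 105 and 225 in O VEH and at 384 and 312 in O FIS, again with no overlap between ages. It fell by 1.60 ± 0.30 (adjusted p = 0.0431) and by 1.20 ± 0.22 (adjusted p = 0.0443).

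The fibroblast levels of both RNAs, which were not tested, were also lower in the old libraries. In the fibroblasts of the same libraries Cmss1 stood at 3233, 2469, 2620.4 and 2742 CPM in Y VEH, at 2300.3, 2836 and 3254 in Y FIS, at 1098, 728 and 1248 in O VEH and at 1943 and 2015 in O FIS, and Cdk8 at 581, 480.0, 525 and 626 CPM in Y VEH, at 518, 599 and 657 in Y FIS, at 303, 205 and 241 in O VEH and at 411 and 402 in O FIS. O VEH F2 was the lowest of the 12 for Cmss1 in NK cells, in fibroblasts and, at 813 CPM, in all its cells. Y FIS M1 was the highest for Cmss1 in fibroblasts, at 3254 CPM, but not in NK cells. The cause of the falls was not tested. Against CD8 T cells of the same libraries, in the fit on both cell types described below, the old against young change of NK cells differed by +0.33 ± 0.17 (log2, SE; adjusted p = 0.513) for Cmss1 and by -0.02 ± 0.19 (log2, SE; adjusted p = 0.995) for Cdk8, and neither passed the test. In O VEH against Y VEH both calls were lost without any 1 of Y VEH F1, F2 and M1, Y FIS F1, O VEH F2 and M1 and O FIS F1, and that of Cdk8 also without Y VEH M2 or O FIS M2. In old against young both were lost without any 1 library other than Y FIS M1 and O VEH F1, although the fitted change was a fall each time. Without the cells of 4 or more ILC1 markers the falls in O VEH against Y VEH were 1.47 for Cmss1 and 1.55 for Cdk8, close to those with all cells, at an adjusted p of 0.0585 for both.

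Igkc, the constant region of the kappa light chain that B and plasma cells make, was called higher in old NK cells, by 2.64 ± 0.42 (log2, SE; adjusted p = 0.0104). It stood at 65.7, 118, 105 and 97.7 CPM in Y VEH, at 49.0, 23.7 and 9.08 in Y FIS, at 57.6, 213 and 167 in O VEH and at 1304 and 141 in O FIS, so the ages overlapped and O FIS F1 was far above the other libraries. In O FIS F1 the fibroblasts held 1089 CPM of Igkc and all cells together 42983 CPM. Of the 6 B cell markers, Ms4a1 was at 0 by the gate, and their summed level in NK cells ran from 183 to 344 CPM in Y VEH and 85.3 to 209 in Y FIS to 139.8 to 349 in O VEH and 252 to 1735 in O FIS. The part of free Igkc RNA in this call was not tested. Without O FIS F1 the difference was 1.49 (adjusted p = 1.00), and the call was also lost without Y VEH F1, Y FIS F1, Y FIS F2, O VEH F2 or O VEH M1. With libraries of at least 5 NK cells the difference was 2.02 (adjusted p = 0.515), and with every library 1.95 (adjusted p = 0.415).

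No gene of the 15 lists was called with age in either direction among the RNAs that passed the filter on low counts. With no such filter, Gzmb, Gzmc and Cma1 were called in O VEH against Y VEH, and Gzmc and Crtam in old against young. The lists are described by how many of the members that passed the filter had a positive log2 fold change, beside a median of 0.01 over all RNAs tested in O VEH against Y VEH and of 0.00 in old against young. The lists share some members, such as Klrg1 in the mature and inhibitory receptor lists, so they are not independent. Of the mature NK genes, 9 of 10 were positive in both comparisons, with medians of 0.60 and 0.23. Of the cytotoxic genes, 10 of 12 were positive in both, with medians of 0.39 and 0.19. Some of these signs rest on single libraries. Without 1 library, old against young ran from -0.01 to 0.73 for Itgam, -0.22 to 0.44 for Klrg1 and -0.003 to 0.45 for Prf1. Of the immature NK genes, 3 of 9 were positive in O VEH against Y VEH (median -0.13) and 6 of 9 in old against young (median 0.26). Of the activating receptors and adaptors, 7 of 12 were positive in both, with medians of 0.01 and 0.06, near the median of all RNAs. The 11 genes of class I antigen presentation were likewise near it, at 0.05 and 0.08. Of the immediate early genes, 2 of 12 had a positive log2 fold change in O VEH against Y VEH, with a median of -0.30, and the median over both treatments was -0.08.

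Single members with the smallest p in these lists did not pass the adjusted test. In O VEH against Y VEH, Gzmb differed by +1.13 ± 0.40 (log2, SE) with an unadjusted p of 0.00943 and an adjusted p of 1.000. Its 3 O VEH libraries lay above its 4 Y VEH libraries, and the groups did not overlap, in either direction, for 5.99% of all RNAs tested. Cma1 differed by +1.46 ± 0.57 (unadjusted p = 0.0183), the inhibitory Ly49 receptor Klra3 by +0.94 (unadjusted p = 0.0300), Ccr2 by -1.10 (unadjusted p = 0.0221) and Zfp36, which shortens the life of cytokine mRNAs, by -1.13 (unadjusted p = 0.00335, adjusted p = 0.746). Jun differed by -1.34 (unadjusted p = 0.0157), Fos by -0.80 (unadjusted p = 0.0223) and Ctla2a by -0.81 (unadjusted p = 0.0240). In old against young the smallest were the cell cycle inhibitor Cdkn2d at +0.76 (unadjusted p = 0.00562), Klra7 at -0.81 (0.0120), Cxcr6 at +1.41 (0.0164) and Klra3 at +0.78 (0.0198), each with an adjusted p of 0.998. The Klra3 difference rests on O FIS M2, without which it was 0.04. Cxcr6 is an ILC1 marker, and its highest value, 179 CPM, was in O VEH F2.

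The third question was what fisetin changed in NK cells. No RNA was called in O FIS against O VEH (0 of 3338, 0%), in Y FIS against Y VEH (0 of 3337, 0%) or in O FIS against Y VEH (0 of 3337, 0%), where 100, 111 and 103 RNAs had an unadjusted p under 0.05. The fisetin effect in old mice also differed from that in young mice for 0 of the 3338 tested (0%), and 95 of them had an unadjusted p under 0.05. DESeq2 called none in the first 2 comparisons and Igkc alone in the other 2. Only 2 O FIS libraries had 10 or more NK cells.

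In Y FIS against Y VEH all 10 mature NK genes had a positive log2 fold change (median 0.58, over all RNAs 0.01), 8 of 9 immature genes a negative one (median -0.53) and 6 of 6 ILC1 genes a negative one (median -1.57), and none passed the adjusted test. The immature and ILC1 lists share Il7r, so their counts are not independent. With no filter on low counts, Cma1, Xcl1 and Inpp4b of these lists were called in this comparison, Crtam in O FIS against O VEH, Crtam, Cx3cr1 and Gzmc in O FIS against Y VEH, and Jun and Xcl1 for the difference of fisetin effects. Cma1 shows the spread behind this, at 265, 417 and 9.08 CPM in Y FIS F1, F2 and M1 against 89.2, 29.5, 82.0 and 68.4 CPM in Y VEH, so that both female Y FIS libraries lay above Y VEH and the male one below it. Without Y FIS M1, 2 RNAs were called in this comparison, Cma1 and Gm4956. In O FIS against O VEH the ILC1 genes were again negative in 6 of 6 (median -1.10), where O VEH includes O VEH F2, and the mature genes were evenly split at 5 of 10 (median -0.03). Of the cytotoxic genes 1 of 12 was positive there (median -0.25), and of the immediate early genes 10 of 12 (median 0.38), and none was called.

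Between sexes, 3 of 3338 RNAs were called (0.0899%), Xist, which silences an X chromosome in females, and the Y-linked genes Eif2s3y and Ddx3y. Xist averaged 741 ± 191 TMM-scaled CPM (SD, n = 7) in the female libraries and 0 in the 5 male ones, as the sex labels state. No gene of the lists was called between sexes among the RNAs that passed the filter on low counts, and 120 RNAs had an unadjusted p under 0.05. With no such filter Ccl3, Ccl4, Gzmc, Ly6c2 and Stmn1 were called, Ccl3 was also called without Y VEH M2 and Ly6c2 without Y FIS M1.

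The last question was whether NK cells changed with age as CD8 T cells did, the other cytotoxic lymphocytes of the same libraries. A fit on both cell types, with the library as a block, tested the difference between their old against young changes, leaving out the genes of both gates. Of 7137 RNAs, 144 differed (2.02%), 12 with a higher and 132 with a lower change in NK cells, and 746 had an unadjusted p under 0.05. For 109 of the 144, the old mean of the CD8 T cells was more than 1.5 times the young mean while the NK means stayed within 1.5 times of each other, and for 7 the CD8 T mean was lower in old by that factor.

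Of the listed transcription factors, 3 of 15 tested were called, Id2, Tbx21 and Prdm1, all with a lower change in NK cells. Id2, which represses E protein factors, stood at 817 ± 79.8 in young and 809 ± 145 in old NK cells, against 121 ± 36.2 and 403 ± 57.0 in CD8 T cells (TMM-scaled CPM, SD, n = 7 young and 5 old libraries), and the difference of changes was -1.81 ± 0.22 (log2, SE; adjusted p = 3.2e-05). Tbx21 stood at 275 ± 99.0 in young and 322 ± 56.3 in old NK cells, against 26.7 ± 12.7 and 103 ± 8.53 in CD8 T cells, with a difference of -1.79 ± 0.22 (adjusted p = 4.4e-05). By library, in CPM without TMM scaling, Tbx21 in CD8 T cells ran from 10.5 to 38.4 (median 19.7) in the 7 young libraries and 88.5, 107, 102, 93.8 and 81.5 in the 5 old ones, without overlap, and in NK cells from 182 to 465 (median 226) in the 7 young libraries and 329, 303, 421, 373 and 262 in the 5 old ones, with overlap.

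Some effector genes were also called. The list of cytotoxic granule and death ligand genes had 2 of 17 tested called, Gzmb and Fasl, both with a lower change in NK cells. Gzmb stood at 630.0 ± 381 in young and 911 ± 459 in old NK cells, against 14.3 ± 23 and 169 ± 97.3 in CD8 T cells, a difference of -3.33 ± 0.52 (adjusted p = 0.000466). Ccl5 stood at 10705 ± 2879 in young and 14538 ± 5124 in old NK cells, against 2188 ± 1153 and 11322 ± 2354 in CD8 T cells, a difference of -2.15 ± 0.31 (adjusted p = 0.000146). Fasl stood at 157 ± 30.2 in young and 178 ± 73.5 in old NK cells, against 11.4 ± 8.44 and 83.5 ± 21.5 in CD8 T cells, a difference of -3.01 ± 0.40 (adjusted p = 9e-05). Of the cytokines and chemokines, 5 of 8 tested were called, all with a lower change in NK cells: Ccl5, Ccl3, Ccl4, Ifng and Xcl1. Ifng stood at 119.8 ± 51.0 in young and 132 ± 37.9 in old NK cells, against 15.2 ± 7.50 and 72.3 ± 16.8 in CD8 T cells.

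Receptors made up a further group. Il2rb stood at 611 ± 70.0 in young and 597 ± 80.3 in old NK cells, against 118 ± 53.5 and 266 ± 49.3 in CD8 T cells, a difference of -1.34 ± 0.23 (adjusted p = 0.00159). Ccr2, Cxcr3 and Itgal were called among the homing genes, Klrk1 and Slamf7 among the activating receptors (2 of 14) and Il2rb and Il18rap among the cytokine receptors (2 of 13), all with a lower change in NK cells. The largest list median was that of the cytokines and chemokines, at -2.05, beside -0.02 over all RNAs tested. No gene was called among the lists of interferon response, class I antigen presentation, proliferation, immediate early genes, ILC1 genes or cell cycle arrest.

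S100a6, a calcium-binding protein outside the lists, had the smallest p, at 1129 ± 315 in young and 1239.8 ± 229.7 in old NK cells, against 269.6 ± 95.6 and 1597 ± 530.2 in CD8 T cells, a difference of -2.41 ± 0.24 (adjusted p = 2.1e-06). Among the 12 RNAs with a higher change in NK cells were Atp1b1, a sodium pump subunit, at 148 ± 46.7 in young and 188 ± 61.8 in old NK cells, against 36.5 ± 6.94 and 5.04 ± 2.82 in CD8 T cells, and the T cell factors Lef1 and Id3. Lef1, a factor of naive T cells, stood at 74.5 ± 24.9 in young and 118 ± 60.5 in old NK cells, against 935 ± 158 and 466 ± 98.0 in CD8 T cells, a difference of +1.63 ± 0.31 (adjusted p = 0.00399). In S100a6, Atp1b1 and Lef1 the larger change was in the CD8 T cells. Spint2, a serine protease inhibitor, was the exception among the 12 RNAs, at 8.48 ± 7.77 in young and 33.7 ± 20.9 in old NK cells, against 68.1 ± 32.3 and 39.9 ± 9.93 in CD8 T cells (adjusted p = 0.00906).

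Some measurements bear on this comparison. The haemoglobin genes Hbb-bs and Hba-a2 were among the 144, with Hbb-bs at a TMM-scaled CPM of 5776 ± 8096 in old and 55.2 ± 24.5 in young CD8 T cells. The old SD is above its mean, so red cell RNA in the CD8 sums differed widely between old libraries. The CD8 gate also held cells with a UMI of the developing T cell genes Dntt, Rag1, Rag2 or Arpp21, and without these cells 182 RNAs were called. With NK cells of 4 or more ILC1 markers left out, 115 were called, and in O VEH against Y VEH alone 72. The NK sums rest on 12 to 51 cells per library. That an RNA was not called in NK cells does not show that it was unchanged there.

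**Figure D5:**
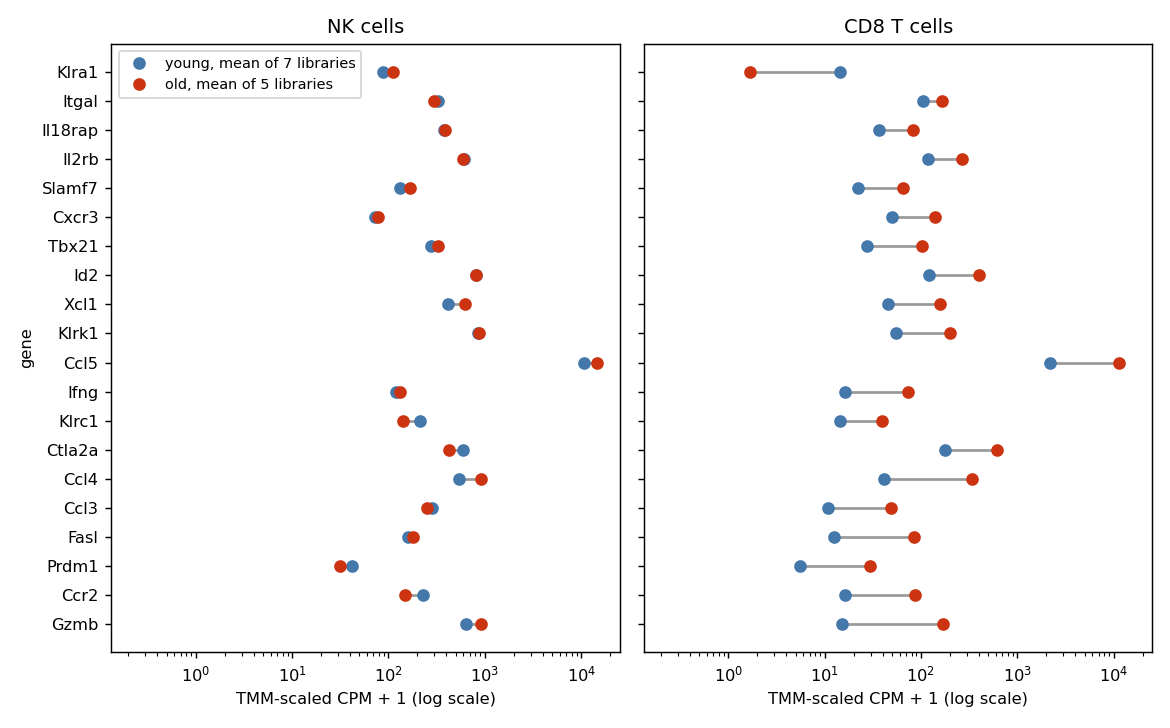
Mean TMM-scaled CPM + 1, on a log scale, in young (blue, 7 libraries) and old (red, 5 libraries) NK cells (left) and CD8 T cells (right), for 20 members of the gene lists whose change with age differed between the cell types. In CD8 T cells the old mean is the higher for all but Klra1, as for Tbx21 at 103 against 26.7, while the NK means lie close together at 322 and 275.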

How the data were processed

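Aortas of 3 mice (by the labels; 2 or 3 by the study's methods) were pooled per library, cleared of perivascular fat and digested with collagenase II and elastase, and viable single cells were sorted and run on the 10x Genomics 3' platform. The authors aligned and counted reads with Cell Ranger 8.0.1 on GRCm39, per the submitters' processing notes, and deposited raw UMI counts per gene and barcode, which were used here as they stood. Seurat 5.2.0, also named there, was not needed.

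Barcodes with 200 to 7000 genes and at most 25% mitochondrial UMIs were kept. NK cells were 297 of 128019 kept cells. The members and the gene lists were chosen with earlier results of these data known. Counts of NK cells were summed per library (12 libraries with at least 10) and tested with edgeR 4.0.16 (TMM, filterByExpr, group and sex, RNAs in over 10% of NK cells of either side). Shares were compared by exact permutation tests over libraries. CD8 T cells had at least 2 of Cd3d, Cd3e and Cd3g, a UMI of Cd8a or Cd8b1 and none of Cd4, Ncr1 or Klrb1c. Named genes were the gate genes, fixed landmarks, up to 3 members per list with the smallest p, called RNAs and the highest levels and ratios. Gene positions were taken from the GRCm39 annotation by Ensembl ID. Nothing in the sources ties equal library names to shared animals, and deviations of same-named libraries from their group means correlated at -0.224 to 0.0512 over 13 pairs, so libraries were not paired. P-values measure the spread between pooled libraries. Scrublet called 2061 doublets, none among the NK cells, and did not work in O FIS M1, Y FIS F2 and O VEH F1, where it called 0, 2 and 2. On simulated counts for these libraries the test was checked before use. Floors take 3 counts. Single results for a few genes are not reported here.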

Additional observations from a re-analysis of the deposited data

How the results depend on the processing

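Most results kept their side of the threshold under the alternatives, but most had not been called and had little room to move. The fitted change of some RNAs that were not called changed sign, as for Xcl1 in O VEH against Y VEH (-1.35 to 0.35 without 1 library). The calls of Cmss1, Cdk8 and Igkc with age were lost without many single libraries, as given above. Over 17, 17, 18 and 25 alternatives, the unadjusted p of an NK share difference was never under 0.05 by an exact permutation test or by edgeR on cell counts (lowest 0.114 for O VEH against Y VEH, 0.1 for O FIS against O VEH, 0.286 for Y FIS against Y VEH and 0.232 for old against young). Many of these tests could not pass and say nothing about stability: the exact permutation test cannot go below 0.0571 in either comparison with O VEH, 0.1 or 0.133 there without 1 library, 0.0571 for Y FIS against Y VEH without 1 library, or 0.25 with 3 pairs. Requiring 6 further genes at 0, which left 47 NK cells, turned old against young to 0.00924 percentage points. Leaving out 1 library gave -0.00882 to 0.129 for O VEH against Y VEH, -0.226 to -0.0879 for O FIS against O VEH, -0.0188 to 0.114 for Y FIS against Y VEH and -0.0908 to -0.0106 for old against young. A gate that excluded only cells with a Cd3 UMI, chosen after seeing the data, changed no direction. The replicate block gave a share difference of 0.0947 percentage points for O VEH against Y VEH (exact permutation p = 0.750).

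The replicate block, which treats same-named libraries as pairs although nothing ties them, left 0 RNAs called in O VEH against Y VEH and 1 in old against young, and changed none of the 4 counts for fisetin; it was not run for the sexes or for NK against CD8 T cells, where the library is already a block. DESeq2 called 1 RNA in O FIS against Y VEH and 1 for the difference of fisetin effects, and a fit to the compared groups only called 1 in O FIS against Y VEH and, in O VEH against Y VEH, lost Cdk8 (adjusted p = 0.0623) and called Gm4956 in its place. DESeq2 size factors in edgeR ended the call of Cmss1 in old against young (adjusted p = 0.0537). With libraries of at least 5 NK cells, or with every library, Gsn was called in place of Igkc in old against young. Cells with 3 of the 4 markers gave 1 call in O VEH against Y VEH and 1 in old against young, and cells with under 4 ILC1 markers 0 and 1. With no filter on low counts the calls were 17 in O VEH against Y VEH, 8 in O FIS against O VEH, 11 in Y FIS against Y VEH, 12 in O FIS against Y VEH, 13 in old against young, 14 for the difference of fisetin effects and 16 between sexes. Leaving out 1 library gave 0 to 3 calls in O VEH against Y VEH and in old against young, 0 to 2 in Y FIS against Y VEH, 0 to 1 in O FIS against O VEH, in O FIS against Y VEH and for the difference of fisetin effects, and 2 to 5 between sexes. RNAs that differed in their age change from CD8 T cells numbered 72 in O VEH against Y VEH alone and 97 to 178 without 1 library. The cause of these shifts was not tested. A gate with 6 further zeros and a minimum of 30 cells per library could not be fitted.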
